A study of Mus musculus with 10 samples.

Results

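Transcripts of 9 adhesion molecules were followed in lens epithelia of mice that overexpress TGF-β1 in the lens. The 9 genes were taken by symbol from the 50763 genes of the deposited count table, and all 9 were found. They are the immunoglobulin superfamily members Vcam1, Icam1, Mcam, Ncam1, Alcam and L1cam, and the mucin-like or heavily glycosylated molecules Glycam1, Cd44 and Fxyd5. Membership rested on the gene symbols and on no cutoff of a measured value, but earlier results of these data were known at the choice.

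RNA-seq was performed on freshly isolated lens epithelia of 3-week-old FVB/N mice. Non-transgenic controls (WT) gave 3 libraries, the transgenic line OVE853 gave 3 and the transgenic line OVE918 gave 4. Both lines carry a human TGF-β1 transgene, altered so that the growth factor is active, under the αA-crystallin promoter, which drives expression in lens cells. Each library was a pool from up to 9 mice for WT, 9 for OVE853 and 7 for OVE918, so the spread between libraries is a spread between pools. Mice of both lines had anterior subcapsular plaques, and whole epithelial explants were taken rather than the plaque alone. In such tissue, fewer cells of a type and less RNA per cell cannot be told apart.

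Between 24073311 and 31908525 fragments were assigned to genes per library. Summed lens epithelium markers, among them the crystallins Cryaa and Cryab, reached 154052 to 159313 CPM (counts scaled to library size) in WT, 104363 to 118882 in OVE853 and 128858 to 196046 in OVE918. Lens fiber markers summed to 15760 to 27744 CPM in WT, 16460 to 24225 in OVE853 and 21206 to 33544 in OVE918. The libraries thus held lens tissue, and these sums do not give the part of epithelium in it. WT replicate 3 stood apart from its group. Its summed retinal neuron markers were 1159 CPM against 119 and 145 in the other WT libraries, its cornea markers were 1619 CPM against 237 and 938, and its endothelial markers were 216 CPM against 83.8 and 78.9. Each member is given with and without it where it moved the result, and so is each gene list whose count of DEGs it moved.

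Cell adhesion molecules of the immunoglobulin superfamily are membrane proteins whose extracellular immunoglobulin domains bind partners on neighbouring cells or on leukocytes. Vcam1 and Icam1 are inducible by cytokines and are bound by leukocyte integrins, whereas Ncam1, Alcam and L1cam bind like molecules on other cells and are best known from the nervous system. Mcam is a junctional molecule of endothelium and of perivascular cells. Glycam1 is a secreted, heavily O-glycosylated mucin, Cd44 is the main cell-surface receptor for hyaluronan, and Fxyd5 (dysadherin) is a membrane protein that associates with the sodium pump and is known to lower cadherin-based adhesion.

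The reference sequence upstream of Glycam1 and Cd44, and a short stretch upstream of Icam1, are shown because Glycam1 had the largest fold change of the 9 genes, Cd44 was the most abundant of the members with higher levels in the transgenic lines after Glycam1, and Icam1 was the one other member that shared a motif match with Glycam1. Sequences come from RefSeq's promoter table, which has an entry for 7 of the 9 members, and each was placed on GRCm39 by an exact match. GRCm39 is not the genome of the FVB/N strain. Capitals mark a match to the STAT motif TTCNNNGAA. The Glycam1 window lies on the minus strand at chr15:103473509-103473758, with 7 of its 250 bases in an annotated exon, the Cd44 window on the minus strand at chr2:102732011-102732260, with 0, and the Icam1 stretch on the plus strand at chr9:20927183-20927212, inside an annotated first exon.
Glycam1: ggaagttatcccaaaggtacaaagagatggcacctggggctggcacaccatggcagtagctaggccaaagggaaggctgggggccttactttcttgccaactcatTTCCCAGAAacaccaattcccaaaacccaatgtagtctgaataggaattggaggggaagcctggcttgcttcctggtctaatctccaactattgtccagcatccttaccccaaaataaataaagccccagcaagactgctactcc
Icam1: aggcgcgaggtTTCCCGGAAagtggccccg
Cd44: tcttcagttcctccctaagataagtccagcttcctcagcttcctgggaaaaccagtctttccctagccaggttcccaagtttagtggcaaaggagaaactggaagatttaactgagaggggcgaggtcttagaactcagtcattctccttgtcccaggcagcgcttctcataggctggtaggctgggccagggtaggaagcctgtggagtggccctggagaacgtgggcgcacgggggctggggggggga

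The matches began 145 bases upstream of the Glycam1 start and 42 bases upstream of the Icam1 start as the RefSeq table sets them. The RefSeq start of Icam1 lies 564 bases into the GENCODE gene. Of 32851 promoters in the table, 7.02% held the STAT motif in the same 250 bases on either strand. The windows of the 7 members held no exact match to the NF-kappaB consensus (7.25% of all promoters) or AP-1 TGANTCA (6.75%). Nor did they match SMAD GTCTAGAC (0.167%), TEAD CATTCC (12.6%) or the TATA box TATAAA (12.4%). Vcam1 and Ncam1 had no entry. The Icam1, Mcam and Alcam windows lay wholly in annotated exons of the gene itself, and those of L1cam and Fxyd5 for the larger part. A match is a description of these letters, and the absence of one says only that the letters are not in these windows.

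Genes with at least 2 FPKM (fragments scaled to transcript length and library size) in 5 of the 10 libraries were tested, which left 11097 genes and 7 of the 9 members. Alcam and L1cam were below that minimum, and their tests come from a fit on the 18058 genes kept by edgeR's filterByExpr. A differentially expressed gene (DEG) had a false discovery rate (FDR) of at most 0.05 in edgeR's quasi-likelihood test and a log2 fold change of at least 1 in either direction. By this rule 5 members were elevated in OVE853 (Vcam1, Icam1, Mcam, Glycam1 and Fxyd5) and 6 in OVE918 (the same 5 genes and Cd44), and 0 were reduced in either. Elevated DEGs made up 2.51% of all genes tested in OVE853 and 2.58% in OVE918, reduced DEGs 1.91% and 3.02%, and DEGs in either direction 4.42% and 5.6%. By the FDR alone 8 of the 9 members differed from WT in each line, all but L1cam, with Alcam and L1cam taken from the filterByExpr fit. Among the 11097 genes at the FPKM minimum, which hold neither Alcam nor L1cam, the shares were 15.8% and 19%. The study itself names Vcam1, Icam1, Mcam, Glycam1 and Fxyd5 among the genes elevated in these libraries, so their count is not independent evidence. Icam1, Mcam and Fxyd5 met the FPKM minimum only through the transgenic libraries, with at most 1.47, 1.92 and 0.631 FPKM in WT. Vcam1 met it through these and WT replicate 3 (2.43 FPKM). The shares of all genes are therefore not an even comparison for these members. In the filterByExpr fit, which tested all 9 members, 5 and 6 were again elevated, against 3.17% and 3.45% of all genes in that fit. That filter can also keep a gene through the transgenic libraries alone. The 2 comparisons share the WT libraries.

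**Figure D1:**
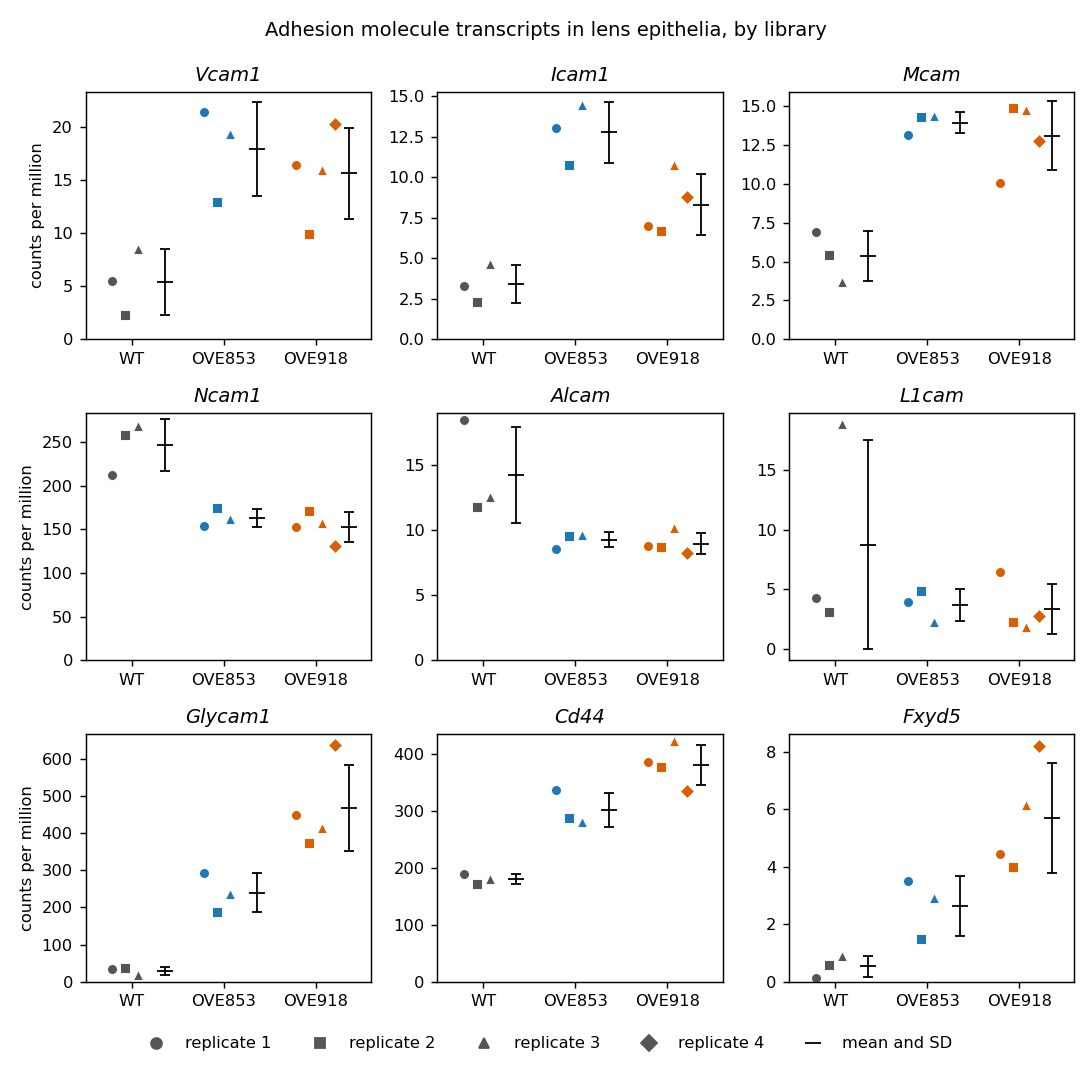
CPM of the 9 transcripts (vertical axes, linear) in each of the 10 libraries, by group (horizontal axes), with the replicate number as the symbol and the mean and SD of the group in black beside the points. The transgenic libraries lie above all WT libraries for Vcam1, Icam1, Mcam, Glycam1, Cd44 and Fxyd5 and below them for Ncam1 and Alcam, whereas the groups overlap for L1cam, where WT replicate 3 reached 18.9 CPM.

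Glycam1 had the largest change. It lies on the minus strand of chromosome 15 (GRCm39, chr15:103471186-103473515) and encodes the secreted mucin named above. Its level was 35.2, 36.1 and 16.8 CPM in WT replicates 1 to 3, 294, 189 and 236 CPM in OVE853, and 448, 373, 414 and 637 CPM in OVE918. The 3 groups did not overlap at all, with WT replicate 3 the lowest library and OVE918 replicate 4 the highest. Relative to WT, the fold was 8.17 in OVE853 (log2 fold change 3.03, SE 0.32, FDR 0.00019) and 16.0 in OVE918 (log2 fold change 4.00, SE 0.32, FDR 1.96e-05). Without WT replicate 3 the log2 fold changes were 2.75 and 3.71, again past the threshold. OVE918 exceeded OVE853 by 0.97 on the log2 scale (95% confidence interval 0.35 to 1.58), with an unadjusted p of 0.00565 in edgeR's quasi-likelihood test and an FDR of 0.0982, so this difference did not pass the threshold. That FDR depended on single libraries. It was 0.0267 without WT replicate 3, where the difference of 0.97 stayed under the minimum fold change, and 0.326 without OVE853 replicate 3. Its lowest value over all alternatives was 0.00921.

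Cd44, on the minus strand of chromosome 2 (chr2:102641486-102732010), was high in every group. Its level was 189, 172 and 181 CPM in WT, 336, 287 and 281 CPM in OVE853, and 385, 377, 422 and 335 CPM in OVE918. Every transgenic library was above every WT library, and OVE918 replicate 4 lay just below OVE853 replicate 1. The log2 fold change was 1.07 in OVE918 (SE 0.11, FDR 6.72e-05), which passed both thresholds, and 0.74 in OVE853 (SE 0.11, FDR 0.00174), which passed the FDR but not the minimum fold change. Genes higher at that FDR alone were 8.1% of those tested in OVE853 and 8% in OVE918. Between the lines, OVE918 was higher by 0.34 on the log2 scale (95% confidence interval 0.10 to 0.57), with an FDR of 0.113. The call of Cd44 as a DEG in OVE918 alone therefore came with a difference between the lines that did not pass this test. The lowest FDR of that difference over all alternatives was 0.00902. The difference itself was 0.28 to 0.43, always under the minimum fold change.

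Fxyd5, on the minus strand of chromosome 7 (chr7:30732147-30741906), was the least abundant member in WT. It was measured by 3, 15 and 25 fragments in WT, 116, 40 and 85 in OVE853, and 104, 107, 165 and 178 in OVE918. As levels these were 0.134, 0.577 and 0.877 CPM in WT, 3.50, 1.48 and 2.89 CPM in OVE853, and 4.45, 3.99, 6.13 and 8.21 CPM in OVE918. The groups did not overlap, and WT replicate 1 rested on so few fragments that its level is known only roughly. The log2 fold change was 2.26 in OVE853 (SE 0.52, FDR 0.0158) and 3.36 in OVE918 (SE 0.49, FDR 0.000874). Without WT replicate 3 these were 2.83 and 3.93, again past the threshold. The call in OVE853 was lost without OVE853 replicate 1 (FDR 0.0650) or replicate 3 (FDR 0.0539). OVE918 exceeded OVE853 by 1.10 on the log2 scale (95% confidence interval 0.21 to 2.00), with an FDR of 0.155. The lowest FDR of this difference over all alternatives was 0.0329, and no alternative called it at both thresholds. Of the other 6 genes of the FXYD family, 2 were tested and 0 were called: on the log2 scale Fxyd1 was at -0.08 in OVE853 and at 0.92 in OVE918, and Fxyd6 at -0.89 and -0.64. Without WT replicate 3, or without OVE918 replicate 2, 1 gene of this family was called in OVE918 against WT and 1 between the lines.

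Vcam1 and Icam1, the leukocyte-binding members, were low in WT and higher in both lines. Vcam1 lies on the minus strand of chromosome 3 (chr3:115903598-115923355) and Icam1 on the plus strand of chromosome 9 (chr9:20926672-20940113). Vcam1 was at 5.46, 2.31 and 8.48 CPM in WT, 21.4, 12.9 and 19.4 CPM in OVE853, and 16.4, 9.95, 15.9 and 20.3 CPM in OVE918. The transgenic libraries all exceeded WT replicate 3, the highest of its group, OVE918 replicate 2 by the smallest margin. Its log2 fold change was 1.72 in OVE853 (SE 0.41, FDR 0.0197) and 1.52 in OVE918 (SE 0.39, FDR 0.0218), and 2.22 and 2.02 without WT replicate 3. The call was one of the less stable ones: in OVE853 it was lost without OVE853 replicate 1 (FDR 0.0729) or replicate 3 (FDR 0.0644), and in OVE918 without WT replicate 1 (FDR 0.0547) or without OVE918 replicate 3 (FDR 0.0504) or replicate 4 (FDR 0.0561).

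Icam1 was at 3.26, 2.31 and 4.63 CPM in WT, 13.1, 10.7 and 14.5 CPM in OVE853, and 6.98, 6.67, 10.8 and 8.81 CPM in OVE918. WT lay below all transgenic libraries, and OVE918 replicate 3 alone reached the range of OVE853. The log2 fold change was 1.90 in OVE853 (SE 0.26, FDR 0.000955) and 1.28 in OVE918 (SE 0.25, FDR 0.00476), and 2.20 and 1.58 without WT replicate 3. Icam1 was the one elevated member with a between-line interval wholly on the side of OVE853. OVE918 was lower by 0.62 on the log2 scale (95% confidence interval of the difference -1.13 to -0.11). The unadjusted p was 0.0216 in edgeR's quasi-likelihood test and the FDR was 0.159. The lowest FDR of this difference over all alternatives was 0.0319, and the difference stayed under the minimum fold change in each.

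Mcam, on the plus strand of chromosome 9 (chr9:44045504-44054025), was at 6.93, 5.42 and 3.72 CPM in WT, 13.1, 14.3 and 14.4 CPM in OVE853, and 10.1, 14.9, 14.7 and 12.8 CPM in OVE918. Every WT library was below all transgenic ones, and OVE918 overlapped OVE853, with its replicate 1 the lowest of the transgenic libraries. The log2 fold change was 1.38 in OVE853 (SE 0.22, FDR 0.00207) and 1.30 in OVE918 (SE 0.21, FDR 0.00135), with a difference between the lines of -0.09 (95% confidence interval -0.51 to 0.34). Without WT replicate 3 the log2 fold changes from WT were smaller, at 1.17 in OVE853 and 1.09 in OVE918.

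Markers of the cell types in which these 3 genes are best known moved in part with them. The summed macrophage markers were 23.1 to 56.3 CPM in WT, 50.2 to 82.0 CPM in OVE853 and 35.8 to 95.9 CPM in OVE918. Within each group the libraries ranked the same by macrophage marker sum and by Vcam1. In the filterByExpr fit, 0 of 12 macrophage markers were elevated in OVE853 and 2 in OVE918 (C1qa and Cd68). Among all genes in that fit 3.17% were elevated in OVE853 and 3.45% in OVE918, the shares to set beside each count here. The median log2 fold change of the 12 markers was 0.99 in OVE853 and 0.93 in OVE918, against -0.005 and 0.013 for all genes. None of the 12 was at 0 in any library, and Ptprc, which marks all leukocytes, stayed between 0.154 and 1.09 CPM. Endothelial markers summed to 78.9 to 216 CPM in WT, 55.0 to 80.7 CPM in OVE853 and 58.4 to 80.5 CPM in OVE918. Of 10 endothelial markers in the same fit, Cdh5 was elevated in OVE853, Cdh5, Cldn5, Pecam1 and Tie1 were elevated in OVE918, and Flt1 was reduced in OVE918. Of 7 pericyte markers only Cspg4 was elevated, in both lines, and the summed level was 115 to 154 CPM in WT, 153 to 189 CPM in OVE853 and 117 to 156 CPM in OVE918. Lymphocyte markers summed to 0.491 to 0.885 CPM in WT, 1.54 to 3.04 CPM in OVE853 and 1.75 to 3.09 CPM in OVE918, so that every transgenic library was above WT, with Ms4a1 at 0 in all libraries, where a count of 0 allows up to 3 fragments, although Cd3g was elevated in both lines. The part of these cells in the levels of Vcam1, Icam1 and Mcam was not tested.

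**Figure D2:**
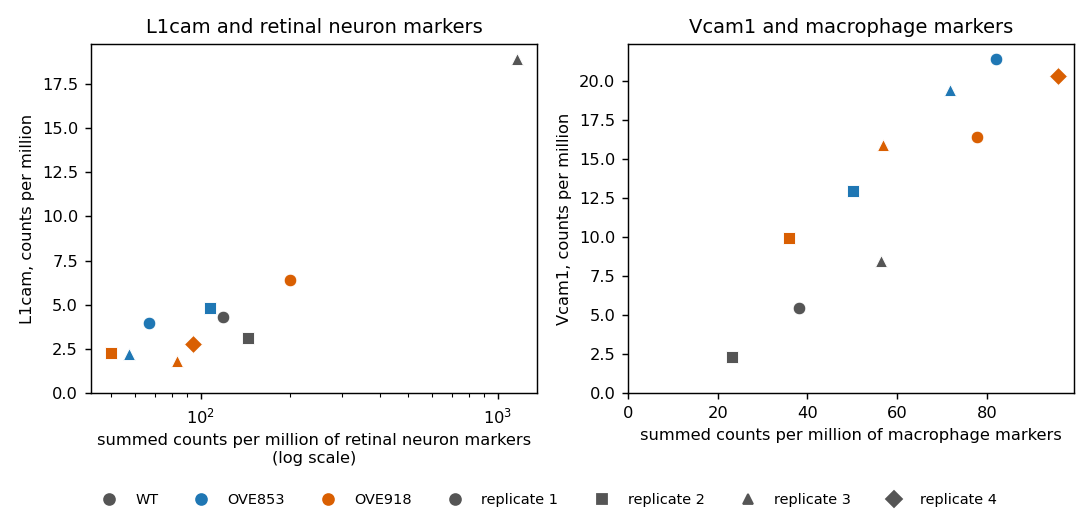
Each point is 1 library, coloured by group and shaped by replicate, with L1cam CPM against the summed CPM of 12 retinal neuron markers (left, logarithmic horizontal axis) and Vcam1 CPM against the summed CPM of 12 macrophage markers (right, linear axes). WT replicate 3 stands alone at 1159 CPM of neuronal markers and 18.9 CPM of L1cam, and within each group libraries with more macrophage marker CPM had more Vcam1, with every WT library at or below 8.48 CPM of Vcam1.

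The 3 members known as neural adhesion molecules were lower in the transgenic lines or did not differ by the test. Ncam1, on the minus strand of chromosome 9 (chr9:49413436-49710357), was at 213, 258 and 269 CPM in WT, 154, 175 and 162 CPM in OVE853, and 153, 171, 157 and 131 CPM in OVE918. All transgenic libraries were below the lowest WT library. The log2 fold change was -0.59 in OVE853 (SE 0.12, FDR 0.00981) and -0.69 in OVE918 (SE 0.11, FDR 0.00164), with folds of 1.51 and 1.61 lower, so Ncam1 passed the FDR but not the minimum fold change. Genes lower at that FDR alone made up 7.69% of all tested in OVE853 and 11% in OVE918.

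Alcam, on the minus strand of chromosome 16 (chr16:52069359-52274437), was at 18.5, 11.7 and 12.5 CPM in WT, 8.58, 9.52 and 9.63 CPM in OVE853, and 8.74, 8.68, 10.1 and 8.26 CPM in OVE918. WT was higher in each of its libraries, most of all in WT replicate 1, and the lines lay on top of each other. In the filterByExpr fit the log2 fold change was -0.61 in OVE853 (SE 0.18, FDR 0.0449) and -0.65 in OVE918 (SE 0.17, FDR 0.0216), again within the minimum fold change. The difference rested in part on WT replicate 1, without which the log2 fold change was -0.37 (FDR 0.0847) in OVE853 and -0.41 (FDR 0.0563) in OVE918. Leaving out each library gave FDR values of 0.0270 to 0.141 in OVE853 and 0.0133 to 0.0572 in OVE918. Genes lower at that FDR alone were 7.02% and 10% of those in the fit.

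L1cam, on the minus strand of the X chromosome (chrX:72897378-72939711), was at 4.29, 3.12 and 18.9 CPM in WT, 3.96, 4.85 and 2.25 CPM in OVE853, and 6.42, 2.27, 1.86 and 2.77 CPM in OVE918. The high mean of WT came from replicate 3 alone, the library with the highest neuronal marker sum, and the other 2 WT libraries lay within the range of the transgenic ones. Its log2 fold change of -1.23 in OVE853 (SE 0.68, FDR 0.236) and -1.37 in OVE918 (SE 0.63, FDR 0.163) did not pass the test, and without WT replicate 3 it was -0.04 and -0.16. The part of neuronal RNA in the L1cam level was not tested. Leaving out the same library left Ncam1 at -0.53 and -0.63 and Alcam at -0.74 and -0.75.

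The summed markers of ciliary epithelium, Müller glia and cornea were also lower in all transgenic libraries than in any WT library. So were Ncam1 and Alcam. Of all genes tested, 22% lay below WT in every OVE853 library and 14.9% in every OVE918 library. The study counts Slc6a13 and Slc1a3, used here as markers, among reduced genes that it found mostly elevated in normal lens epithelium. Ciliary epithelium markers summed to 134 to 204 CPM in WT, 23.0 to 37.8 CPM in OVE853 and 8.19 to 15.1 CPM in OVE918, and all 3 (Best2, Slc6a13 and Wfdc1) were reduced in both lines. Müller glia markers summed to 3518 to 5264 CPM, 2059 to 2402 CPM and 2447 to 2930 CPM, and of 5 genes Aqp4, Glul and Rlbp1 were reduced in both lines and Slc1a3 in OVE853. Cornea markers summed to 237 to 1619 CPM, 62.7 to 92.9 CPM and 26.6 to 81.8 CPM, and of the 5 the 1 tested, Aldh3a1, was reduced in both, with Kera at 0 in all libraries and Krt12 at 0 in those of both lines. Markers of other neighbouring tissues did not share this order in both lines. Stromal fibroblast markers summed to 307 to 599 CPM in WT, 719 to 745 CPM in OVE853 and 433 to 555 CPM in OVE918. Photoreceptor markers summed to 10.2 to 38.8 CPM, 17.1 to 36.1 CPM and 32.2 to 77.3 CPM. Pigmented cell markers overlapped between WT and both lines, and retinal neuron markers between WT and OVE918. The part of all these tissues in the levels of Ncam1 and Alcam was not tested.

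**Figure D3:**
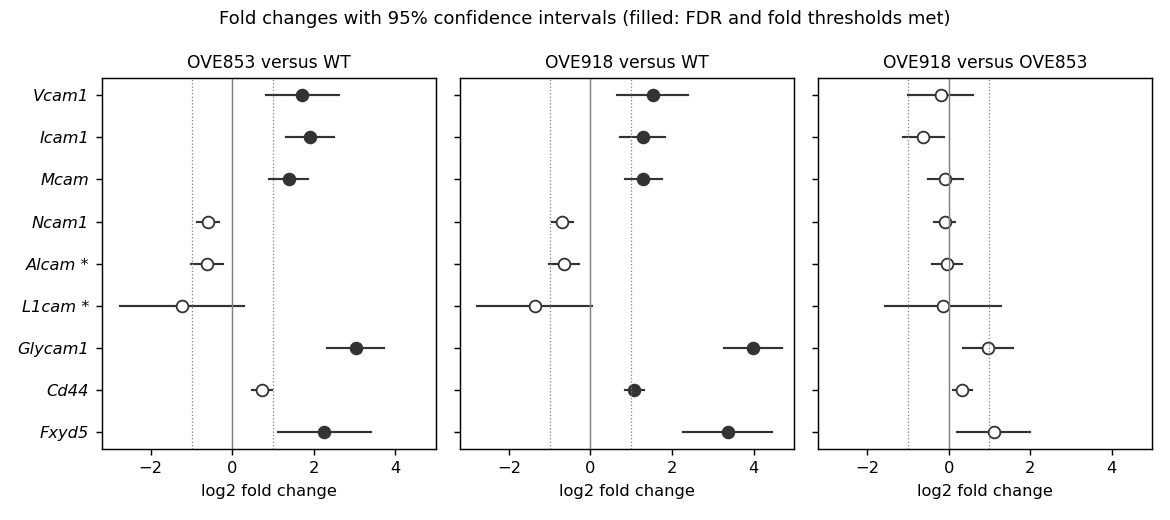
Log2 fold changes (horizontal axes) of the 9 members (rows) in the 3 comparisons, as points with lines for the 95% confidence intervals, with dotted lines at a log2 fold change of -1 and 1. Filled points passed the FDR and fold thresholds, 5 in OVE853, 6 in OVE918 and 0 between the lines, and asterisks mark Alcam and L1cam, taken from the filterByExpr fit.

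Counted by libraries, 8 of the 9 members did not overlap between WT and either line, 6 of them higher and 2 lower than WT. Among all genes tested, 23.4% were higher and 22% lower in every OVE853 library than in every WT library. In every OVE918 library these shares were 12.3% and 14.9%, so for a single gene in a single line this pattern was common. The shares are of the 11097 genes at the FPKM minimum, without Alcam. The share of genes separated in both lines at once was not counted. Between the lines Glycam1 and Fxyd5 did not overlap, both higher in OVE918, as were 13.4% of all genes tested. No member was a DEG between OVE918 and OVE853, where DEGs were 0.487% of genes tested. At an unadjusted p under 0.05 in edgeR's quasi-likelihood test, Icam1, Glycam1, Cd44 and Fxyd5 differed between the lines, as did 22.9% of all genes, and by DESeq2 0 members were called at the same thresholds. For Vcam1 the interval of the difference between the lines was -1.001 to 0.61, for Ncam1 -0.35 to 0.15, for Alcam -0.40 to 0.34 and for L1cam -1.57 to 1.29.

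Levels can be compared between genes only per transcript length, here as FPKM. In WT the 3 abundant members were Glycam1 at 44.6 ± 16.0 FPKM (SD, n = 3), Ncam1 at 38.8 ± 6.01 and Cd44 at 30.9 ± 0.929. Glycam1 overlapped Ncam1 in WT, so their order was not separated by the spread between libraries. The other 6 members had mean levels of 0.377 to 2.17 FPKM in WT. In OVE853 Glycam1 reached 390 ± 94.2 FPKM (SD, n = 3), Cd44 54.9 ± 6.01 and Ncam1 27.2 ± 1.18, and in OVE918 they reached 667 ± 128 (SD, n = 4), 61.6 ± 8.76 and 22.7 ± 4.07 FPKM.

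By the exon lengths used here, the order of Cd44 and Ncam1 was thus exchanged between WT and the transgenic lines. Cd44 was at 0.972, 0.727 and 0.735 times the FPKM level of Ncam1 in the WT libraries, at 2.38, 1.80 and 1.90 times in OVE853, and at 2.76, 2.41, 2.93 and 2.80 times in OVE918. Each WT ratio was below 1, that of WT replicate 1 only just, and the ratios of the 3 groups did not overlap. Whether a ratio lies below 1 depends on the exon lengths, whereas its change between the groups does not. Glycam1 made up 23.4% to 42.1% of the summed FPKM of the 9 members in WT, 76.0% to 81.8% in OVE853 and 84.4% to 90.9% in OVE918. With Glycam1 left out, the sum was 70.9 to 86.1 FPKM in WT, 92.4 to 107 FPKM in OVE853 and 86.0 to 112 FPKM in OVE918, and the WT range met that of OVE918 replicate 4 at its upper end. Every library of OVE853 was above WT in this sum.

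**Figure D4:**
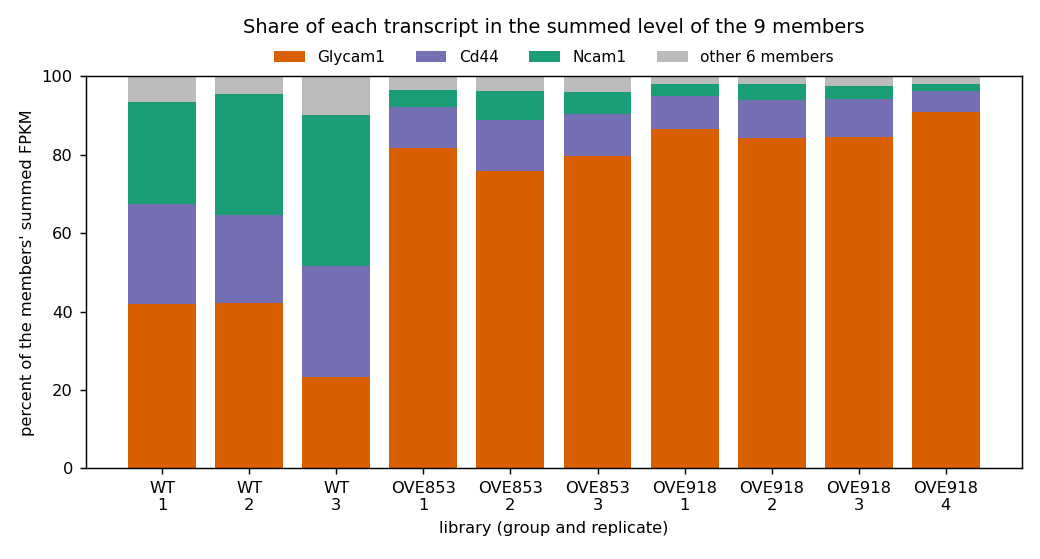
Share of each transcript in the summed FPKM of the 9 members (vertical axis, percent, from 0 to 100) for each of the 10 libraries (bars), with Vcam1, Icam1, Mcam, Alcam, L1cam and Fxyd5 joined in grey. Glycam1 takes 23.4% to 42.1% of the sum in WT and 76.0% to 90.9% in the transgenic libraries, and Ncam1 takes 26.1% to 38.5% in WT and 1.92% to 7.23% in the transgenic libraries.

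Related genes were read from lists of the same molecular families and of their partners. Of 37 other immunoglobulin superfamily adhesion molecules, 22 were tested. In OVE853 0 were elevated and 1 was reduced, Cntn1, a neuronal contactin, with a log2 fold change of -2.00 (SE 0.29, FDR 0.00149). In OVE918 0 were elevated and 4 were reduced: Cntn1 (log2 fold change -2.24), the laminin receptor Bcam (-1.14), Cadm4 (-1.03) and the junctional molecule Jam2 (-1.06). The median log2 fold change of the list was -0.09 in OVE853 and -0.01 in OVE918, against -0.01 and 0.01 for all genes tested. The DEGs of this list depended on single libraries: in OVE853 they numbered 0 without WT replicate 3, 3 without WT replicate 2 and 5 without WT replicate 1, and in OVE918 1 without WT replicate 3 and 2 without OVE853 replicate 1, OVE853 replicate 2 or OVE918 replicate 2. In the filterByExpr fit, which tested 36 of the 37, the elevated genes were Madcam1 in OVE853 and Madcam1, Chl1 and the endothelial Pecam1 in OVE918, with 6 and 8 reduced (3.72% and 5.34% of all genes in that fit). Between the lines Bcam was lower in OVE918 by 1.08 on the log2 scale (FDR 0.0249), and Lsamp, a limbic system-associated adhesion molecule, was higher by 1.13 (FDR 0.0396). With any one OVE853 library or OVE918 replicate 4 left out, 0 genes of the list were called between the lines, and with WT replicate 2 or any other OVE918 library left out 1 was.

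Of 11 other mucin-like molecules, 4 were tested, and Podxl2, another sialomucin, was reduced in both lines, at -1.25 (SE 0.18, FDR 0.00113) and -1.45 (SE 0.16, FDR 0.000156) on the log2 scale. Podxl2 was at 188 to 306 CPM in WT, 97.4 to 114 CPM in OVE853 and 76.1 to 105 CPM in OVE918, a direction opposite to that of Glycam1. In the filterByExpr fit Cd34, a sialomucin of endothelium and stromal progenitors, was elevated in both lines, from 0.926 CPM on average in WT to 3.40 and 4.14 CPM. Of 9 genes for polysialylation and sialomucin glycosylation, 3 were tested and 0 were called. St8sia2, which adds polysialic acid to Ncam1, ranged from 30.2 to 111 CPM in WT, 113 to 133 CPM in OVE853 and 56.5 to 113 CPM in OVE918, with log2 fold changes of 0.68 (FDR 0.262) and 0.18 (FDR 0.791).

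Receptors of the members were mostly scarce. Of 17, 5 were tested and 0 were called in either line, although 1 was called in OVE853 without WT replicate 1, WT replicate 2 or OVE853 replicate 2. Cd6, the lymphocyte receptor of Alcam, did not exceed 0.210 CPM in any library. Itga4, the integrin chain that binds Vcam1, was at 0.138 to 1.58 CPM over all libraries. Itgb2, the shared chain of the leukocyte integrins that bind Icam1, was at 0.0769 to 0.736 CPM in WT, 1.19 to 1.72 CPM in OVE853 and 1.04 to 2.31 CPM in OVE918, and in the filterByExpr fit it was elevated in OVE918 (log2 fold change 1.89, FDR 0.0358) but not in OVE853 (1.64, FDR 0.0750). Itgb1, the widely expressed integrin chain that pairs with Itga4, was abundant throughout at 240 to 498 CPM, with log2 fold changes of 0.35 (FDR 0.187) and 0.42 (FDR 0.109).

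Among partners of Cd44, single genes changed more than Cd44 itself, in both directions. Of 13 genes for hyaluronan synthesis and binding, 6 were tested. Their median log2 fold change was 0.49 in OVE853 and 0.22 in OVE918, below that of Cd44. Spp1 (osteopontin), a secreted Cd44 ligand, was elevated in both lines, at 0.192 to 1.44 CPM in WT, 14.5 to 28.6 CPM in OVE853 and 32.04 to 162 CPM in OVE918, with log2 fold changes of 4.68 (SE 0.87, FDR 0.0096) and 6.56 (SE 0.89, FDR 0.00119). Cemip, which is involved in hyaluronan breakdown, was elevated at 2.42 and 2.27 on the log2 scale, and Vcan, a hyaluronan-binding proteoglycan, was reduced in OVE918 (-2.58, FDR 0.000994) and was at -0.93 (FDR 0.119) in OVE853. With any one OVE853 library left out, or OVE918 replicate 2 or OVE918 replicate 3, 1 gene of this list was called in OVE853, and 1 between the lines without OVE918 replicate 3.

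Of 11 cytoskeletal linkers of the members, 10 were tested. Msn (moesin), which joins Cd44 and Icam1 to actin, was elevated in OVE918 (log2 fold change 1.23, SE 0.17, FDR 0.000634) and was at 0.90 in OVE853 (FDR 0.00862), under the minimum fold change. In OVE853 1 linker was called without WT replicate 2, WT replicate 3 or OVE853 replicate 2. The related linkers Ezr and Rdx were at -0.11 and -0.06 in OVE853 and -0.11 and -0.16 in OVE918. Of 10 proteases able to release such molecules from the cell surface, 7 were tested. Mmp2 was elevated in both lines (log2 fold changes 1.40 and 1.86), losing the call in OVE853 without OVE853 replicate 1 or replicate 3. Adam10, which cleaves Cd44, L1cam and Alcam, was at 0.48 (FDR 0.0422) and 0.46 (FDR 0.0339), under the minimum fold change.

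**Figure D5:**
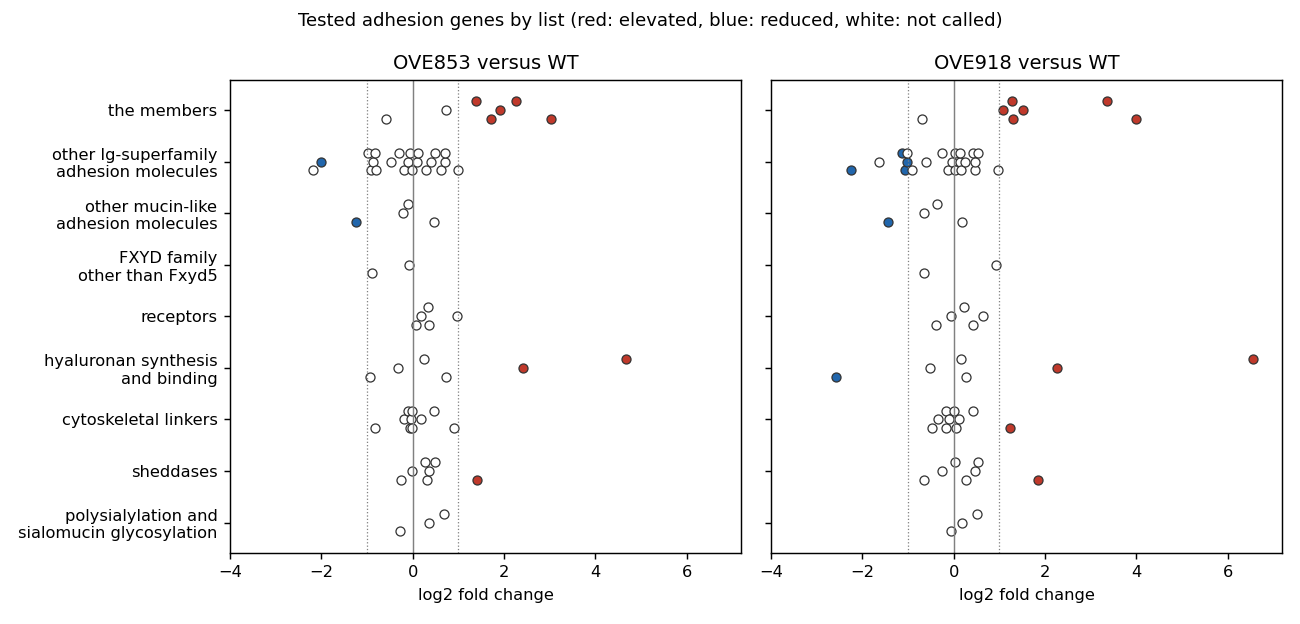
Log2 fold change from WT (horizontal axes) of every tested gene of the adhesion lists (rows) in OVE853 (left) and OVE918 (right), with elevated DEGs in red, reduced DEGs in blue and genes not called in white. The 7 tested members hold 5 and 6 elevated DEGs, against 2.51% and 2.58% of all genes tested. The study had already named Vcam1, Icam1, Mcam, Glycam1 and Fxyd5 as elevated, so this row was not picked like the others. Icam1, Mcam and Fxyd5 met the FPKM minimum only through the transgenic libraries, so these shares are not an even comparison. The 22 other immunoglobulin superfamily genes hold 0 elevated and 1 and 4 reduced ones, against 1.91% and 3.02% reduced among all genes tested.

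The genes whose log2 CPM followed each member most closely over the 10 libraries were named by Pearson's r. These values describe libraries that fall into groups, share the WT pools and differ in cell makeup, so they mostly repeat the differences between groups. For Glycam1 they were Timp1 (r = 0.99), Leprot and Tagln2, for Cd44 Ivns1abp (0.99), Slc39a14 and Synm, and for Fxyd5 Car2 (0.98), Flnc and Gal. For Icam1 they were C4b (0.97), Prkch and Relb, for Vcam1 Ctss (0.98), the macrophage marker C1qb and Nrp2, and for Mcam Nxpe4 (0.99), Ece1 and Gpc1. Among the members that were lower or did not differ, Ncam1 was followed by Fam107b (0.98), Ube2q2 and Ptpn13, Alcam by Pdlim5 (0.97), Pkp4 and Nqo2, and L1cam by Gpr162 (0.97), Cacna1b and Ppfia3.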

How the data were processed

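Whole-number gene counts of lens epithelium RNA-seq were deposited by the authors, who trimmed reads (Cutadapt 5.2), aligned them to GRCm39 (STAR 2.7.11b) and counted reverse-stranded read pairs over exons of the NCBI RefSeq annotation (featureCounts 2.0.8). The 9 members and all gene lists were chosen with earlier results of these data known. CPM used TMM-scaled library sizes. FPKM used total counts and exon lengths of GENCODE vM39, in which 43252 genes matched by symbol, 22 through a synonym and 7489 not at all. Following the study's methods, genes with at least 2 FPKM in 5 of 10 libraries were tested with edgeR 4.0.16 in R 4.3.3 (quasi-likelihood, robust, 3 groups in 1 fit), with Benjamini-Hochberg adjustment over all genes tested. DEGs met an FDR limit of 0.05 and a minimum change of 1 on the log2 scale. All 9 members were named, and from the other adhesion lists the genes past the threshold in both lines (at most 3 a list) and the leukocyte receptors. The other genes of those lists that are named were chosen after their values were seen. Likeness used log2 CPM with a prior count of 2. The tests were tried on simulated counts first.

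Library totals were 24073311 to 28645174 in WT, 27409730 to 31908525 in OVE853 and 25342220 to 28562553 in OVE918, and 1 fragment was worth 0.0302 to 0.0461 CPM. Counts of replicates differed by far more than sampling noise, with chi-square per degree of freedom of 20.0 to 212. WT replicate 3 gave 171 and 90.4 against WT replicates 1 and 2. OVE918 replicate 2 also stood apart, with 172, 70.8 and 212 against OVE918 replicates 1, 3 and 4. Same-strand neighbours share 0 exon bases with the members. Alternatives covered DESeq2 1.42.0, limma 3.58.1 voom, other normalizations, filters (also 2 FPKM in 6 libraries), lengths and tests, the replicate block and leaving out each library. The result of 1 receptor gene is not reported here.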

Additional observations from a re-analysis of the deposited data

How the results depend on the processing

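Over the 9 members in 3 comparisons, 544 recomputed values kept their direction and side of the threshold, 17 lost the call, 5 gained one and 7 changed sign. All 7 sign changes were differences between OVE918 and OVE853 that no test called: Alcam at 0.038 by voom with sample quality weights and -0.097 to 0.025 when each library was left out, L1cam at -0.66 to 0.10 and Mcam at -0.15 to 0.021. Elevated members numbered 3 to 5 in OVE853 and 5 to 6 in OVE918 when each library was left out, and 0 to 0 passed both thresholds between the lines. In a test against a fold change of 2 they numbered 2 and 2, and with the FDR alone 8 members passed in each line. With exon lengths of all transcripts Vcam1, Icam1 and Fxyd5 fell under the FPKM minimum, leaving 2 and 3. Without a filter beyond 1 count Vcam1 missed the FDR (0.0588 in OVE853, 0.0629 in OVE918), as it did in OVE853 with only the groups compared (0.0507).

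Over all genes, DEGs numbered 491 in OVE853, 621 in OVE918 and 54 between the lines, with ranges of 334 to 664, 523 to 729 and 6 to 93 when each library was left out. They numbered 129, 227 and 0 in the test against a fold change of 2, 1752, 2110 and 146 with the FDR alone, and 1244 and 1587 (OVE853 and OVE918) with filterByExpr and 1061 and 1548 without a filter. With the FPKM minimum in 6 libraries the numbers were 464, 580 and 54. Between the lines DESeq2 gave 107, voom 111 and the groups alone 97. Same-numbered libraries did not deviate together (9 pairs, r from -0.30 to 0.08), so the numbers were not read as pairs. With the replicate block 5, 6 and 0 members passed, and DEGs numbered 441, 539 and 28. The causes of these shifts were not tested. Depth limits Fxyd5 most, with 3 to 25 fragments in WT libraries.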
